A study of Mus musculus with 15 samples.

Results

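This account describes 10 genes that carry, fold or respond to glucocorticoid signalling, in a mouse macrophage-like cell line treated with 4 steroids. They are the steroid receptor genes Nr3c1 and Nr3c2, the chaperone and co-chaperone genes Hsp90aa1, Hsp90ab1, Fkbp4 and Ptges3, the coregulator genes Ncoa1, Ncoa2 and Ncor1, and the steroid-activating enzyme gene Hsd11b1. Members were found by gene name among the noncontrol rows of the array files. That gave 10 of the 36870 gene names and 26 of the 56605 probes on the array. Of these, 20 probes from 9 genes passed the filter on dim signal and were tested, among 28508 tested probes in all. Hsd11b1 was the gene with no tested probe.

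Steroid receptors are transcription factors that bind a hormone inside the cell. Without hormone, the glucocorticoid receptor is held by Hsp90 dimers together with co-chaperones such as p23 and the immunophilins FKBP4 and FKBP5. With hormone it enters the nucleus and recruits coactivators or corepressors at its target genes. In macrophages glucocorticoids are known for dampening inflammatory gene expression.

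RNA from RAW264.7 cells was measured on one-colour Agilent arrays, 3 per group. The steroid groups received dexamethasone (DEX), fluticasone furoate (FF), or a compound known here by its code only, VSG158 or VSG159, each at 100 nM. LPS (1 ug per ml) followed the steroid after 1 h and was left for 16 h. DEX and FF are synthetic glucocorticoids, and FF carries a furoate ester that DEX lacks, among other differences in structure. LPS is lipopolysaccharide from bacteria, an activator of macrophages. The vehicle group is labelled with ethanol and DMSO. The protocol given for every sample includes LPS, so vehicle cells are taken to have received it, and which compound was dissolved in which solvent is not given in the sources used here. RAW264.7 is a single transformed line, grown in culture. The labels number 3 replicates per group, while the series text speaks of duplicates, and nothing says that replicates came from separate cultures. The p-values therefore measure the spread between these samples, which may be technical.

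The macrophage list had 9 of 9 markers tested, with a summed relative signal of 788 to 944 in DEX, 804 to 874 in FF, 776 to 869 in VSG158, 878 to 948 in VSG159 and 829 to 930 in vehicle. Epcam, Krt8 and Cdh1, markers of epithelial cells, were not tested because they were too dim, and neither were Cd3g, Cd79a, Col1a1 and Pdgfra. The T cell marker Cd3e and the fibroblast marker Dcn were above background on all 15 arrays. With DEX, FF, VSG158, VSG159 and vehicle in turn, Cd3d (T cell) was above it on 0, 1, 1, 1 and 3 arrays. Ms4a1 (B cell) was above it on 0, 2, 1, 1 and 2, and Col1a2 (fibroblast) on 0, 1, 0, 0 and 2. The 2 tested T cell markers summed to a relative signal of 0.81 (lowest, VSG159) to 3.98 (highest, VSG158). The arrays lay on 2 slides. Slide 1 held the VSG158 arrays, VSG159 replicates 1 and 2 and the vehicle arrays, and slide 2 held the DEX arrays, the FF arrays and VSG159 replicate 3. DEX and FF thus share no slide with vehicle, and a fit with slide as a term ties them to vehicle through VSG159 alone. Each group also filled its own positions on a slide, so position and group cannot be told apart. Levels below are log2 ratios of a probe's processed signal to the 75th percentile of its array, given for replicates 1, 2 and 3 in turn. They compare arrays for 1 probe, never 1 probe with another. A probe's position is counted within the transcript record it was designed on, and probes of a gene can have different records. Changes are log2 differences fitted by limma over all 15 arrays, and adjusted p-values are Benjamini-Hochberg values over all tested probes of a comparison, called under 0.05. In these bulk samples, fewer cells of a type and less RNA per cell cannot be told apart.

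Against vehicle, the member probes moved in both directions. Fkbp4 was higher with all 4 steroids on each of its 3 probes, whereas Hsp90aa1, Nr3c1, Ncoa1 and several Ncor1 probes were lower. Of the 20 tested member probes, 4 were higher and 7 lower with DEX, where 47.1% of all tested probes were called (21.5% higher and 25.6% lower). With FF, 4 were higher and 9 lower (all probes 43.0%, with 20.4% higher and 22.7% lower). With VSG158 the counts were 4 and 9 (all probes 45.6%, with 18.9% and 26.7%), and with VSG159 they were 3 and 9 (all probes 44.9%, with 18.4% and 26.5%). The median change over the member probes was -0.38, -0.47, -0.44 and -0.58 with DEX, FF, VSG158 and VSG159, beside -0.03, -0.07, -0.10 and -0.11 over all tested probes. Ncor1 alone gave 7 of the 20 probes, so these medians and counts weigh that gene most and do not describe the 9 genes evenly. Dim probes of Ncoa1 (position 1983) and Ncor1 (position 2755) passed the filter through the vehicle arrays alone, which favours a lower value with steroid. All 4 comparisons use the same vehicle arrays, so they are not independent of each other. A moderated F test over the 5 groups called 12 of the 20 member probes, beside 46.3% of all tested probes.

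**Figure D1:**
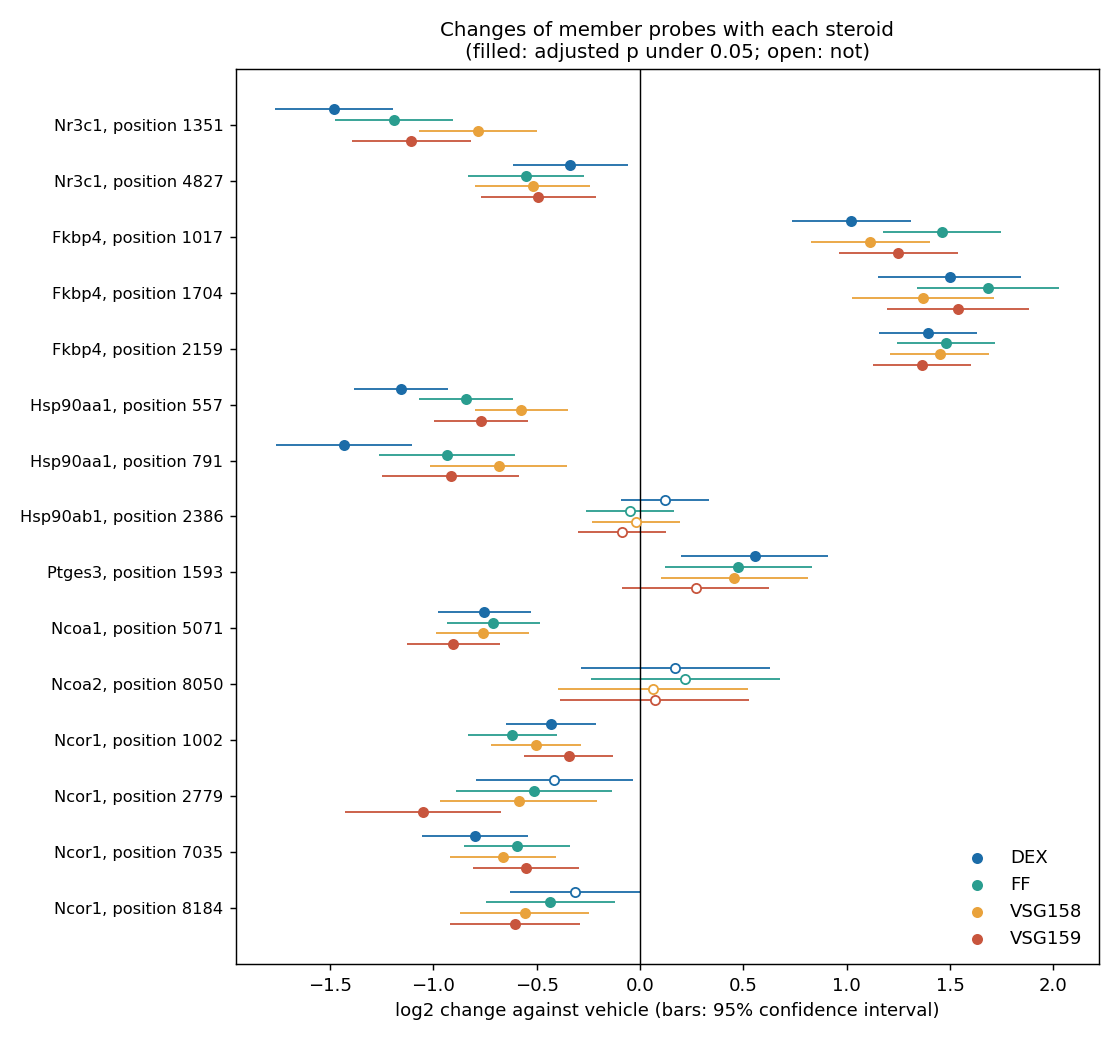
Log2 change of each plotted member probe against vehicle (horizontal axis) with DEX, FF, VSG158 and VSG159 (colours), 3 arrays per group. Points are limma estimates, bars are 95% confidence intervals, and filled points have an adjusted p under 0.05. The Fkbp4 probes lie to the right of 0, while the Hsp90aa1, Nr3c1 and Ncoa1 probes lie to its left.

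Nr3c1 encodes the glucocorticoid receptor, the target of DEX and FF. It lies on chromosome 18, and the array carries 2 probes for its transcript, which start at bases 1351 and 4827 of it according to the array files. Both were well above background on all 15 arrays. At position 1351 the level was 1.89, 2.22 and 1.79 with DEX, 2.27, 2.27 and 2.23 with FF, 2.65, 2.75 and 2.58 with VSG158, 2.54, 2.17 and 2.31 with VSG159 and 3.63, 3.36 and 3.35 in vehicle. Every steroid array lay below every vehicle array. The probe fell by 1.48 with DEX (SE 0.13, adjusted p = 3.24e-06), by 1.19 with FF (adjusted p = 1.41e-05), by 0.79 with VSG158 (adjusted p = 0.000387) and by 1.11 with VSG159 (adjusted p = 2.59e-05). These are folds of 2.79, 2.29, 1.72 and 2.15 below vehicle. On the arrays of slide 1 alone, the changes were -0.79 with VSG158 and -1.09 with VSG159, and with slide as a fixed term they were -1.43 with DEX and -1.14 with FF. All 4 of these were called. With slide and array position both in the model, which overlap with group, no change of this probe was called (-0.60, -0.55, -0.55 and -0.65 with DEX, FF, VSG158 and VSG159, adjusted p = 0.783, 0.606, 0.0706 and 0.235).

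At position 4827 the Nr3c1 level was 2.78, 2.64 and 2.55 with DEX, 2.41, 2.49 and 2.43 with FF, 2.61, 2.63 and 2.19 with VSG158, 2.41, 2.41 and 2.69 with VSG159 and 3.08, 2.91 and 2.99 in vehicle. Here too no steroid array reached the lowest vehicle array, but the distances were smaller. The probe fell by 0.55 with FF (SE 0.13, adjusted p = 0.00384), by 0.52 with VSG158 (adjusted p = 0.00552) and by 0.49 with VSG159 (adjusted p = 0.0076). Within slide 1 alone it fell by 0.52 with VSG158 (adjusted p = 0.0259) and by 0.59 with VSG159 (adjusted p = 0.0243). With DEX the change was -0.34 (SE 0.13, adjusted p = 0.0476), which is close to the threshold. That DEX call was lost without any 1 of DEX 2 or 3, the FF arrays, VSG158 1, VSG159 1 or 2 or the vehicle arrays, with adjusted p-values of 0.0152 to 0.15 over the arrays left out. Scaling each array to its median ended the calls of this probe with all 4 steroids (adjusted p = 0.322, 0.186, 0.114 and 0.264 for DEX, FF, VSG158 and VSG159), and so did slide with array position, which turned the DEX change to 0.27 and gave -0.20, -0.27 and -0.12 with FF, VSG158 and VSG159.

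The difference between the Nr3c1 probes (position 1351 minus position 4827) was -0.89, -0.43 and -0.76 on the DEX arrays, -0.14, -0.22 and -0.20 on the FF arrays, 0.04, 0.12 and 0.39 on the VSG158 arrays, 0.13, -0.24 and -0.38 on the VSG159 arrays and 0.55, 0.45 and 0.36 on the vehicle arrays. Its size within an array has no meaning, but its shift between groups shows how unequally the probes moved. Group means were -0.69 ± 0.24 with DEX, -0.19 ± 0.04 with FF, 0.18 ± 0.18 with VSG158, -0.16 ± 0.27 with VSG159 and 0.45 ± 0.09 in vehicle (SD, n = 3 each). VSG158 replicate 3 alone among the steroid arrays lay within the vehicle range. Over the 12 steroid arrays the difference was 0.67 lower than over the 3 vehicle arrays (exact two-sided permutation p = 0.0154, where the smallest p possible is 0.0022). After Benjamini-Hochberg adjustment over the 27 pairs of probes of a same member, that is 0.104, and 0 of the 27 pairs were called. An unadjusted p under 0.05 was found for 6 pairs. Besides the Nr3c1 pair, each of them includes the dim Ncor1 probe at position 2235. After normexp background correction 3 pairs were called, but not the Nr3c1 pair (adjusted permutation p = 0.0593). On slide 1 alone the shift was -0.36 (exact permutation p = 0.0714, smallest possible 0.0179). The array files give both probes the same transcript accession, and which transcript forms each one reads was not tested.

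**Figure D2:**
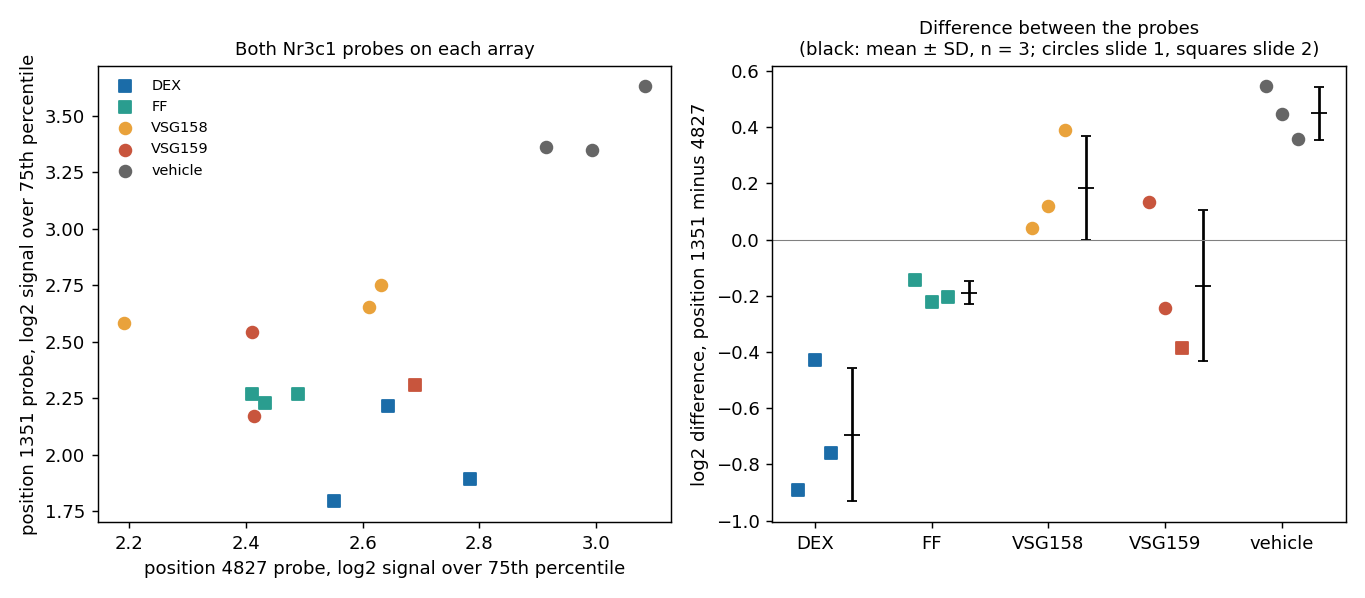
Left, the level of the position 1351 probe of Nr3c1 (vertical axis) against that of the position 4827 probe (horizontal axis), both in log2 processed signal over the array's 75th percentile, for the 15 arrays. Right, the difference between the probes in log2 units for DEX, FF, VSG158, VSG159 and vehicle, with circles for slide 1, squares for slide 2 and black bars for mean ± SD (n = 3). The DEX arrays lie lowest in the right panel, at -0.89 to -0.43, and the vehicle arrays lie at 0.36 to 0.55.

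Across the 15 arrays, levels of the Nr3c1 probes correlated at r = 0.63, a description of arrays that share the same groups. The genes closest in pattern to each probe, among 12605 genes compared, were picked on these same arrays. Their changes therefore follow the probe's own by choice and are no separate evidence that the probes differ. The position 4827 probe was most like Acap2, Dip2a and St8sia4 (r = 0.97 each over 15 arrays). With DEX, FF, VSG158 and VSG159, Acap2 changed by -0.54, -0.63, -0.65 and -0.63, and St8sia4 by -0.84, -1.07, -1.07 and -1.26. The position 1351 probe was most like Eea1 (r = 0.99), Ppp2r5e (r = 0.98) and Jun (r = 0.98). As this choice brings with it, their falls were deepest with DEX and shallowest with VSG158. They were -1.37, -1.03, -0.76 and -0.97 for Eea1 and -1.63, -1.30, -1.11 and -1.27 for Jun.

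Nr3c2 encodes the mineralocorticoid receptor, which binds aldosterone and also glucocorticoids. Of its 3 probes on chromosome 8, those at positions 253 and 3332 were above background on 0 of 15 arrays, with processed signals of 5.41 to 18.7 and 5.36 to 18.5. The position 5472 probe (mm9 chr8:79768704-79768763) was above background on all 15 arrays, with levels of -0.71, -0.74 and -1.18 with DEX, -1.13, -1.57 and -1.53 with FF, -1.14 and -2.55 in VSG158 replicates 1 and 2, -2.51 in VSG159 replicate 3, and -2.40, -1.15 and -0.88 in vehicle. Its spots on VSG158 replicate 3 and VSG159 replicates 1 and 2 were marked as outliers by the scanner software, so the fit leaves them out. The vehicle arrays spread widely, and all FF arrays and DEX replicate 3 lay within their range, with DEX replicates 1 and 2 above it. Differences from vehicle were 0.60 with DEX (SE 0.45, adjusted p = 0.301), 0.06 with FF (adjusted p = 0.93), -0.37 with VSG158 (adjusted p = 0.591) and -1.03 with VSG159 (SE 0.63, 1 array, adjusted p = 0.219). None was called at this spread. With the marked spots kept, the differences were -0.14 with VSG158 and 1.27 with VSG159 (adjusted p = 0.216), so the sign with VSG159 hangs on those spots.

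Hsp90aa1 encodes the inducible cytosolic form of Hsp90 and Hsp90ab1 the constitutive one. Hsp90aa1 lies on chromosome 12, and the sequences of its 2 measured probes are shown because both give the same direction from different stretches of the transcript. The position 557 probe reads mm9 chr12:111933318-111933377, and the position 791 probe covers mm9 chr12:111932511-111932796, 60 bases of RNA over 286 genomic bases, so that an intron lies between its ends. Both are on the minus strand and are written 5′ to 3′, with no base singled out in capitals.
Hsp90aa1 position 557: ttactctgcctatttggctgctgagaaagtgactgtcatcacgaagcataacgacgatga
Hsp90aa1 position 791: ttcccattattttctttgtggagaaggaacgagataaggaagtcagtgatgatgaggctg

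At position 557 the Hsp90aa1 level was 4.83, 4.91 and 4.77 with DEX, 5.19, 5.10 and 5.17 with FF, 5.30, 5.46 and 5.50 with VSG158, 5.25, 5.35 and 5.07 with VSG159 and 6.16, 5.87 and 5.95 in vehicle. All 12 steroid arrays lay below the vehicle arrays, and the DEX arrays lay below all others. The probe fell by 1.16 with DEX (SE 0.10, adjusted p = 3.53e-06), by 0.84 with FF (adjusted p = 3.61e-05), by 0.58 with VSG158 (adjusted p = 0.000685) and by 0.77 with VSG159 (adjusted p = 7.23e-05). In folds these are 2.23, 1.79, 1.49 and 1.71 below vehicle.

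At position 791 the Hsp90aa1 level was 4.59, 4.63 and 4.40 with DEX, 5.01, 5.13 and 4.97 with FF, 5.19, 5.39 and 5.29 with VSG158, 5.08, 4.84 and 5.25 with VSG159 and 6.33, 5.84 and 5.75 in vehicle. From lowest to highest the group means ran DEX, FF, VSG159, VSG158 and vehicle, as on the other probe, and the FF and VSG159 arrays overlapped. Its changes were -1.43 with DEX (SE 0.15, adjusted p = 1.32e-05), -0.93 with FF (adjusted p = 0.000315), -0.68 with VSG158 (adjusted p = 0.00286) and -0.92 with VSG159 (adjusted p = 0.000362). Within slide 1 alone, both probes remained lower with VSG158 (-0.58 and -0.68) and with VSG159 (-0.69 and -1.01), each of them called. Slide with array position ended all 4 calls at position 791 (-0.71, -0.50, -0.40 and -0.48 with DEX, FF, VSG158 and VSG159) and those with DEX, FF and VSG159 at position 557 (-0.88, -0.58 and -0.67). A further Hsp90aa1 probe, at position 1188, was above background on 0 of 15 arrays, with a processed signal of 5.32 to 21.8.

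Hsp90ab1 gave a different picture on its single probe (position 2386, mm9 chr17:45704788-45704847). Its level was 7.82, 7.79 and 7.93 with DEX, 7.66, 7.66 and 7.70 with FF, 7.62, 7.75 and 7.75 with VSG158, 7.58, 7.71 and 7.62 with VSG159 and 7.56, 7.69 and 7.93 in vehicle. Each steroid group overlapped the vehicle range. The difference was 0.12 with DEX (95% confidence interval -0.09 to 0.34), -0.05 with FF (-0.26 to 0.16), -0.02 with VSG158 (-0.23 to 0.19) and -0.09 with VSG159 (-0.30 to 0.12). No comparison was called. With terms for slide and array position, which overlap with group, the differences were -0.73, -0.65, -0.27 and -0.54 with DEX, FF, VSG158 and VSG159, also not called.

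Fkbp4 encodes FKBP52, an immunophilin co-chaperone that binds Hsp90 in the mature receptor complex. Its 3 probes on chromosome 6 lie at position 1017 (mm9 chr6:128383200-128383259), position 1704 (mm9 chr6:128380528-128380587) and position 2159 (mm9 chr6:128380121-128380178). The first of these and the promoter window are shown because Fkbp4 was the member that rose on every probe with every steroid. The promoter is the 250 bases before the gene's start in RefSeq's GRCm38.p6 table, chr6:128438657-128438906 on the minus strand, a later build than the probes' mm9. Capitals mark a match to GAANNTTC, a core arrangement of the heat shock element, 151 bases before the start.
Fkbp4 position 1017: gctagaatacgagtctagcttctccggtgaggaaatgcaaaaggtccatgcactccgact
Fkbp4 promoter: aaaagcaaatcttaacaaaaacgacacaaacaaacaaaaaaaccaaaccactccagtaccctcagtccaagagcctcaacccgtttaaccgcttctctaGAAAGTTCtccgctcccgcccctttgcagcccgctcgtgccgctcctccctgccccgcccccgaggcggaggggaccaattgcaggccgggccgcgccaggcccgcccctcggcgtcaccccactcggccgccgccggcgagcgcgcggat

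At position 1017 the Fkbp4 level was 0.97, 1.09 and 0.94 with DEX, 1.47, 1.45 and 1.40 with FF, 1.25, 1.09 and 0.95 with VSG158, 1.06, 1.20 and 1.42 with VSG159 and -0.04, 0.23 and -0.24 in vehicle. The steroid and vehicle arrays were far apart, and the FF arrays were above the DEX arrays. The probe rose by 1.02 with DEX (SE 0.13, adjusted p = 6.14e-05), by 1.46 with FF (adjusted p = 2.65e-06), by 1.11 with VSG158 (adjusted p = 2.6e-05) and by 1.25 with VSG159 (adjusted p = 9.88e-06).

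At position 1704 the Fkbp4 level was 1.66, 1.87 and 1.85 with DEX, 2.09, 1.85 and 1.998 with FF, 1.64, 1.48 and 1.88 with VSG158, 1.95, 2.07 and 1.48 with VSG159 and 0.16, 0.44 and 0.30 in vehicle. At position 2159 it was 4.35, 4.30 and 4.30 with DEX, 4.17, 4.50 and 4.54 with FF, 4.40, 4.46 and 4.24 with VSG158, 4.18, 4.31 and 4.36 with VSG159 and 2.91, 2.85 and 3.01 in vehicle. On both, the steroid arrays stood above all vehicle arrays and the 4 steroid groups overlapped each other. The folds over vehicle with DEX, FF, VSG158 and VSG159 were 2.82, 3.21, 2.58 and 2.90 at position 1704, and 2.63, 2.79, 2.73 and 2.57 at position 2159. All 8 of these changes were called, with adjusted p-values of 5.01e-07 to 2.13e-05. Within slide 1 alone, the 3 probes were higher by 1.11, 1.37 and 1.45 with VSG158 and by 1.15, 1.71 and 1.32 with VSG159, also called, and with slide as a fixed term the DEX changes were 0.73, 2.03 and 1.28. Slide with array position ended the DEX call on all 3 probes (adjusted p = 0.385, 0.393 and 0.587, with a change of 0.87 at position 2159) and the FF call at positions 1017 and 2159 (adjusted p = 0.0619 and 0.176).

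Ptges3 encodes p23, the co-chaperone that stabilises the hormone-binding state of the Hsp90 complex. Its one probe lies at position 1593 (mm9 chr10:127513950-127514009). The level was 5.56, 5.38 and 5.53 with DEX, 5.47, 5.46 and 5.31 with FF, 5.46, 5.66 and 5.06 with VSG158, 5.03, 5.08 and 5.51 with VSG159 and 4.89, 4.83 and 5.10 in vehicle. The DEX and FF arrays lay above the vehicle arrays, whereas VSG158 replicate 3 and VSG159 replicates 1 and 2 lay within the vehicle range. The difference was 0.55 with DEX (SE 0.16, adjusted p = 0.0147), 0.47 with FF (adjusted p = 0.0334), 0.46 with VSG158 (adjusted p = 0.038) and 0.27 with VSG159 (adjusted p = 0.205).

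The Ptges3 calls did not hold under every setting. With slide as a fixed term the DEX and FF differences were 0.10 and 0.02 (adjusted p = 0.78 and 0.965), and within slide 1 alone the VSG158 difference was 0.46 (adjusted p = 0.072). All 3 calls also ended under median scaling and quantile normalization. The DEX call was lost without vehicle 2 (adjusted p = 0.0548). The FF call was lost without FF 1 or 2 or vehicle 1 or 2, and the VSG158 call without VSG158 1 or 2, FF 2 or vehicle 1 or 2. The Ptges3 promoter window, shown as that of another co-chaperone gene, is GRCm38.p6 chr10:128058732-128058981 on the plus strand. None of the 4 motifs searched was found in it, and a link between motifs and changes was not tested.
Ptges3 promoter: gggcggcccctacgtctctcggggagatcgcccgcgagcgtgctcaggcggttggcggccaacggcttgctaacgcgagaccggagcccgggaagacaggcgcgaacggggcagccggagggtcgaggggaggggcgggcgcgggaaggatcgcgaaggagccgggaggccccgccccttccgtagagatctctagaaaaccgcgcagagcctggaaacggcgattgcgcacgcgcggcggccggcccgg

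The motifs searched on both strands of the 250-base windows were GAANNTTC and TTCNNGAA, arrangements of the heat shock element core, CACGTG, the E-box, and AGAACA, an arm of the palindrome that glucocorticoid receptors bind. Of 32851 RefSeq promoters, 6.69% held GAANNTTC, 7.17% TTCNNGAA, 6.02% CACGTG and 16.1% AGAACA. Promoter entries were searched for 6 of the 10 members, 7 entries in all. Nr3c1, on chromosome 18, was left out of the search by choice, and no entry was found for Hsp90aa1, Hsp90ab1 or Ncoa2. Besides Fkbp4, the Nr3c2 window held GAANNTTC, also 151 bases before the start, and 1 of the Ncor1 windows held AGAACA at 185 and 12 bases before the start. The windows of Ncoa1 and Hsd11b1 held none of the 4. A match describes these letters and not a bound site.

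**Figure D3:**
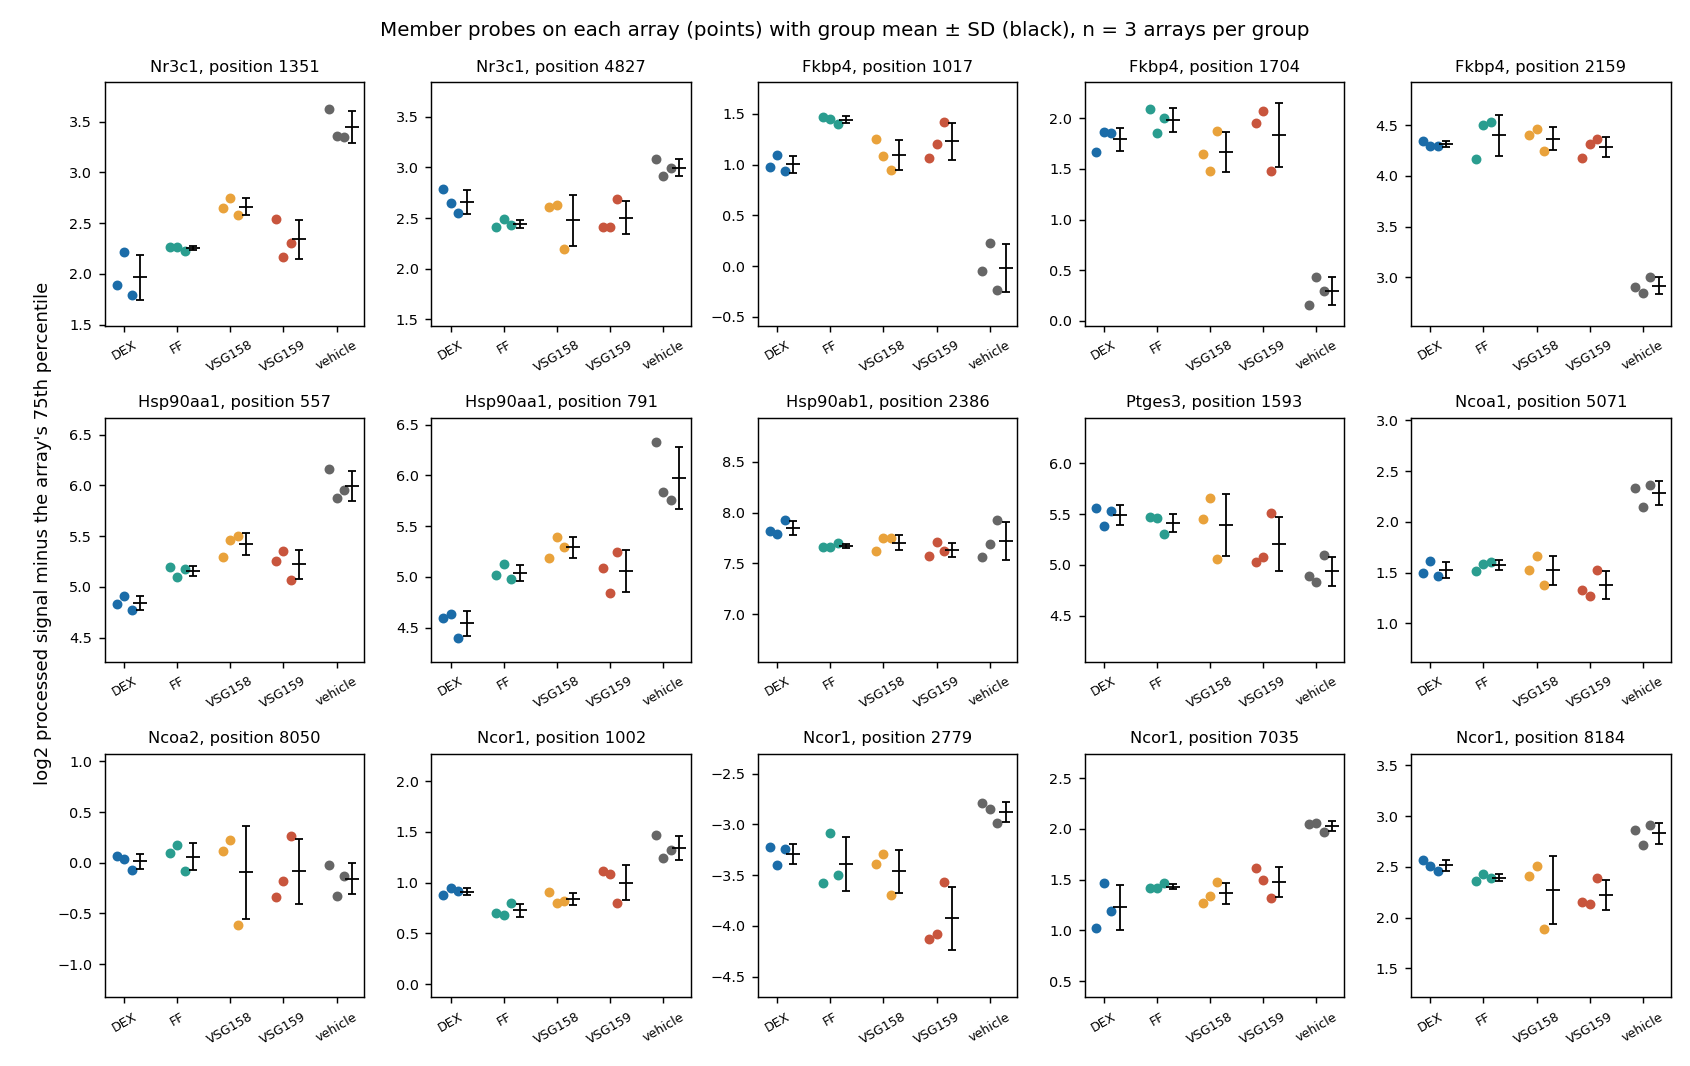
Level of member probes on each array, as log2 of processed signal over the 75th percentile of the array (vertical axes, one panel per probe), for DEX, FF, VSG158, VSG159 and vehicle. Points are arrays and black marks are group mean ± SD (n = 3 arrays per group). The steroid arrays of Fkbp4 stand above vehicle, those of Hsp90aa1, Nr3c1 and Ncoa1 stand below it, and those of Hsp90ab1 and Ncoa2 overlap it.

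The coactivator gene Ncoa1 encodes SRC-1, a p160 protein that joins ligand-bound receptors to histone acetyltransferases. Its position 5071 probe lies at mm9 chr12:4249560-4249619. The level was 1.50, 1.61 and 1.47 with DEX, 1.52, 1.59 and 1.61 with FF, 1.53, 1.66 and 1.38 with VSG158, 1.33, 1.27 and 1.53 with VSG159 and 2.33, 2.15 and 2.37 in vehicle. No steroid array came near the vehicle range, and the steroid groups overlapped each other. Ncoa1 fell by 0.76 with DEX (SE 0.10, adjusted p = 9.86e-05), by 0.71 with FF (adjusted p = 0.000134), by 0.76 with VSG158 (adjusted p = 7.87e-05) and by 0.90 with VSG159 (adjusted p = 1.92e-05). These are folds of 1.69, 1.64, 1.70 and 1.87 below vehicle. On the slide 1 arrays the falls with VSG158 and VSG159 were 0.76 and 0.98, both called. Slide with array position ended the calls with DEX (-0.88, adjusted p = 0.529) and FF (-0.86, adjusted p = 0.228). A dim Ncoa1 probe at position 1983 was above background on 0 DEX, 0 FF, 1 VSG158, 1 VSG159 and 2 vehicle arrays and was not called with any steroid.

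Ncoa2 encodes SRC-2 (GRIP1), another p160 protein, which is known both to assist glucocorticoid receptor activation and to take part in its repression of inflammatory genes in macrophages. Its position 8050 probe (mm9 chr1:13129343-13129402) read 0.07, 0.04 and -0.07 with DEX, 0.09, 0.17 and -0.08 with FF, 0.11, 0.22 and -0.62 with VSG158, -0.34, -0.18 and 0.27 with VSG159 and -0.02, -0.32 and -0.13 in vehicle. All steroid groups overlapped vehicle. Differences were 0.17 with DEX (95% confidence interval -0.29 to 0.63), 0.22 with FF, 0.06 with VSG158 and 0.07 with VSG159, and none was called. The other Ncoa2 probe, at position 4131 (mm9 chr1:13139131-13140771), was above background on 3 of 15 arrays and was not tested.

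Ncor1 encodes the nuclear receptor corepressor, a scaffold that brings histone deacetylase 3 to unliganded and antagonist-bound receptors. It lies on chromosome 11 with 8 probes, of which 7 were tested. Positions 1002, 3645 and 7035 are counted in the same transcript record, and the other positions in other records. The numbers therefore do not order all the probes along the gene. By genome coordinates the position 2779 probe lies upstream of the position 1002 probe. Sequences of a probe near the start and a probe far downstream are shown because these were the Ncor1 probes called lower with all 4 steroids. The position 1002 probe lies at mm9 chr11:62211860-62211919 and the position 7035 probe at mm9 chr11:62131484-62132878, both on the minus strand.
Ncor1 position 1002: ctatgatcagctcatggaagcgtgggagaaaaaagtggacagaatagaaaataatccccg
Ncor1 position 7035: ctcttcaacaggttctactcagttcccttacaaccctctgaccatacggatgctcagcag

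At position 1002 the Ncor1 level was 0.87, 0.95 and 0.92 with DEX, 0.70, 0.68 and 0.79 with FF, 0.90, 0.80 and 0.82 with VSG158, 1.11, 1.09 and 0.80 with VSG159 and 1.47, 1.24 and 1.32 in vehicle. The steroid arrays lay below vehicle without overlap. Changes were -0.43 with DEX (adjusted p = 0.00365), -0.62 with FF (adjusted p = 0.000284), -0.50 with VSG158 (adjusted p = 0.00127) and -0.35 with VSG159 (adjusted p = 0.0133). With slide as a fixed term the DEX and FF changes were -0.13 and -0.32 and were not called (adjusted p = 0.495 and 0.108). Within slide 1 alone, VSG158 gave -0.50 (adjusted p = 0.0082) and VSG159 -0.25 (adjusted p = 0.129), and without vehicle 1 the VSG159 call was lost (adjusted p = 0.0589). Median scaling ended all 4 calls of this probe (adjusted p = 0.116, 0.0583, 0.0558 and 0.365 with DEX, FF, VSG158 and VSG159). The calls with DEX and VSG159 also ended under normexp (-0.28 and -0.29) and in the deposited value table (-0.25 and -0.29), and slide with array position ended those with DEX (-0.002), FF (-0.23) and VSG159 (-0.18).

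At position 7035 the Ncor1 level was 1.02, 1.47 and 1.19 with DEX, 1.42, 1.41 and 1.46 with FF, 1.27, 1.34 and 1.48 with VSG158, 1.61, 1.50 and 1.32 with VSG159 and 2.05, 2.06 and 1.97 in vehicle. Again the steroid arrays were all lower. The probe fell by 0.80 with DEX (adjusted p = 0.000167), by 0.60 with FF (adjusted p = 0.00131), by 0.66 with VSG158 (adjusted p = 0.000593) and by 0.55 with VSG159 (adjusted p = 0.00218). The FF call ended with slide as a fixed term (-0.35, adjusted p = 0.185), while VSG158 and VSG159 kept theirs within slide 1 alone (-0.66 and -0.47). The VSG159 call ended under median scaling (-0.48, adjusted p = 0.0613) and in the deposited value table (-0.45, adjusted p = 0.0553), and slide with array position ended those with DEX, FF and VSG159 (adjusted p = 0.577, 0.491 and 0.176).

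A further downstream Ncor1 probe, at position 8184 (mm9 chr11:62130536-62130595), read 2.57, 2.51 and 2.46 with DEX, 2.36, 2.43 and 2.39 with FF, 2.41, 2.51 and 1.89 with VSG158, 2.15, 2.13 and 2.39 with VSG159 and 2.86, 2.71 and 2.91 in vehicle. It was called lower with FF (-0.44), VSG158 (-0.56) and VSG159 (-0.61), and not with DEX (-0.32, adjusted p = 0.0904). The FF call was lost when any 1 FF array, vehicle 1 or vehicle 3 was left out. All 3 calls ended under median scaling (adjusted p = 0.339, 0.103 and 0.168) and with slide and array position (-0.20, -0.37 and -0.33). The position 2779 probe (mm9 chr11:62215226-62215285) read -3.22, -3.40 and -3.24 with DEX, -3.58, -3.09 and -3.50 with FF, -3.39, -3.29 and -3.70 with VSG158, -4.13, -4.08 and -3.56 with VSG159 and -2.79, -2.85 and -2.98 in vehicle. All steroid arrays lay below the vehicle arrays. Its changes were -0.41 with DEX (adjusted p = 0.0686), -0.51 with FF (adjusted p = 0.0311), -0.59 with VSG158 (adjusted p = 0.0154) and -1.05 with VSG159 (adjusted p = 0.000359). Leaving out FF 1 or 3 or vehicle 1 or 2 ended its FF call, and leaving out VSG158 3 or vehicle 1 its VSG158 call. The VSG159 change was -0.41 under normexp (adjusted p = 0.071) and -0.59 in the deposited value table (adjusted p = 0.0909), no longer called. In these 2 settings FF gave -0.22 and -0.26, and neither was called. The VSG158 call ended in the deposited value table and under median scaling and quantile normalization. Slide with array position ended all 3 calls, and with slide as a fixed term the DEX change was -0.95 (adjusted p = 0.0138). In the fit on group alone, the 4 better measured Ncor1 probes had the same sign in all comparisons with vehicle. The dim probes at positions 2755 and 3645 were not called, and neither was the position 2235 probe, which lies on the opposite strand to the others and gave 0.40, 0.89, 0.14 and 0.21. The position 1207 probe, also on the opposite strand, was above background on 0 of 15 arrays.

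Hsd11b1 encodes 11β-hydroxysteroid dehydrogenase 1, which regenerates active glucocorticoid from its inert 11-keto form. Its single probe (position 979, mm9 chr1:195048169-195048228) was above background on 0 of 15 arrays, with a processed signal of 6.15 to 22.96. At this signal no difference between groups could be measured.

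Between the steroids, all given at the same dose and times, 6 pairs were compared, which share arrays with each other. The member calls were in VSG158 against DEX, where 3 of 20 probes were higher and none lower, beside 2.39% of all tested probes (1.47% higher). These were the Nr3c1 probe at position 1351, at 0.69 (95% confidence interval 0.41 to 0.98, adjusted p = 0.02), the Hsp90aa1 probe at position 557, at 0.58 (0.36 to 0.81, adjusted p = 0.0153), and the Hsp90aa1 probe at position 791, at 0.75 (0.42 to 1.08, adjusted p = 0.0272). On these probes the VSG158 arrays lay above the DEX arrays, which is to say closer to vehicle. DEX and VSG158 share no slide. With slide as a fixed term the differences were 0.64, 0.35 and 1.03 and none was called (adjusted p = 0.147, 0.241 and 0.0606), and the calls also ended under median scaling and with slide as a random term. All 3 calls were lost without DEX 1, DEX 3 or VSG158 2, those of Nr3c1 and Hsp90aa1 position 791 without VSG158 1, and that of Hsp90aa1 position 791 without VSG158 3.

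FF and DEX lay on the same slide. No member probe was called between them, beside 4.27% of all tested probes. Fkbp4 at position 1017 was 0.44 higher with FF (95% confidence interval 0.15 to 0.72, adjusted p = 0.0801), Hsp90aa1 was 0.32 higher at position 557 (adjusted p = 0.101) and 0.50 higher at position 791 (adjusted p = 0.0829), and Nr3c1 at position 1351 was 0.29 higher (adjusted p = 0.219). These 4 of 20 member probes had an unadjusted p under 0.05, beside 22.5% of all tested probes. Fkbp4 at position 2159 differed by 0.09 (-0.15 to 0.33) and Ncoa1 at position 5071 by 0.04 (-0.18 to 0.27).

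VSG159 against DEX gave no member call either, beside 4.77% of all tested probes, and 5 of 20 member probes had an unadjusted p under 0.05, beside 21.7% of all. Hsp90aa1 was 0.39 higher at position 557 (95% confidence interval 0.16 to 0.61, adjusted p = 0.0549) and 0.52 higher at position 791 (adjusted p = 0.0717), Nr3c1 at position 1351 was 0.37 higher (adjusted p = 0.12), and Ncor1 at position 2779 was 0.64 lower (adjusted p = 0.0583). In VSG158 against FF, VSG159 against FF and VSG158 against VSG159, limma called 0 probes of any gene (0% in each). In these pairs 2087, 1587 and 1645 probes had an unadjusted p under 0.05 (7.32%, 5.57% and 5.77%), among them 4, 2 and 2 of the 20 member probes. The Nr3c1 probe at position 1351 was 0.41 higher with VSG158 than with FF (0.12 to 0.69, adjusted p = 0.667) and 0.32 higher with VSG158 than with VSG159 (0.04 to 0.61, adjusted p = 0.85).

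**Figure D4:**
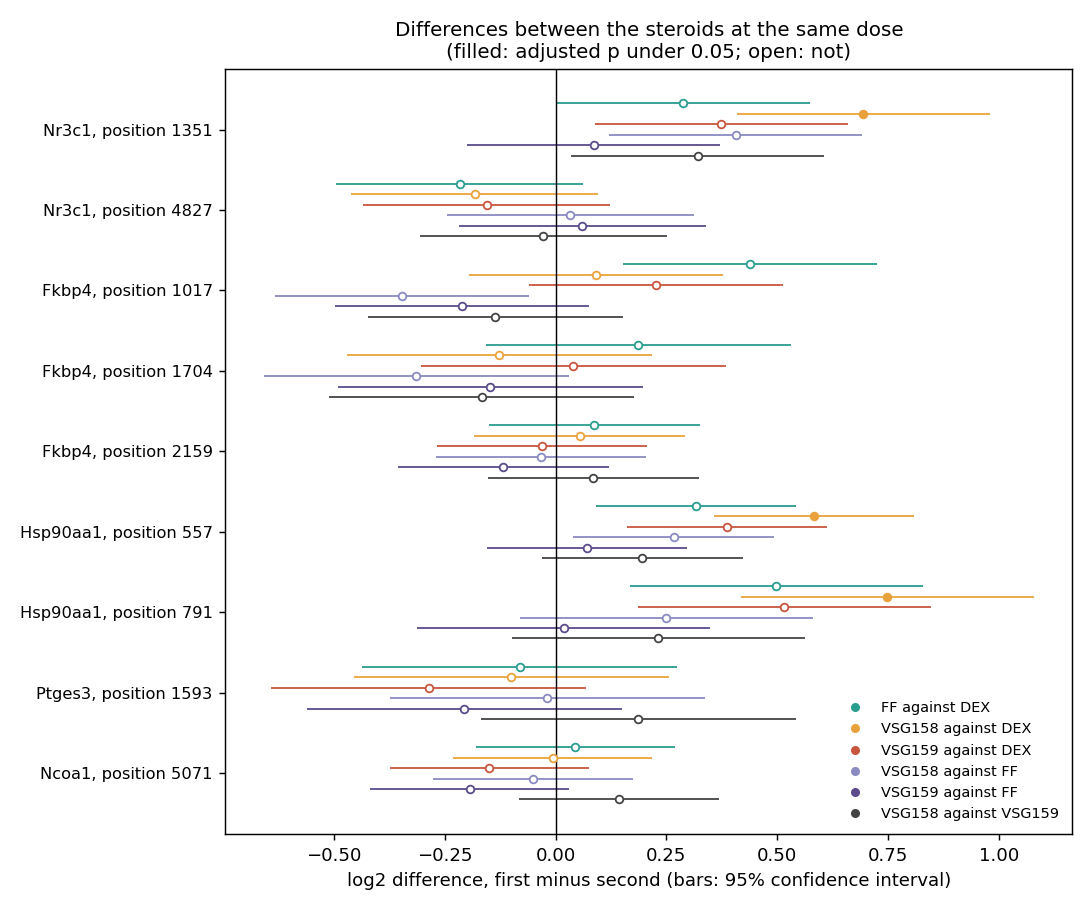
Log2 difference between steroids for member probes (horizontal axis, first steroid minus second), with limma estimates as points and 95% confidence intervals as bars. Filled points have an adjusted p under 0.05. The filled points are VSG158 against DEX for Nr3c1 at position 1351 (0.69) and Hsp90aa1 at positions 557 and 791 (0.58 and 0.75).

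Beyond the members, a list of 29 other chaperone and related genes was measured, each by its brightest tested probe. It holds Hsp90 and Hsp70 chaperones and co-chaperones, and also the mitochondrial chaperonin genes Hspd1 and Hspe1 and the heat shock factor gene Hsf1. This list and those below were chosen with earlier results of these data known. Their counts beside the shares over all genes are thus a description, and enrichment was not tested. With DEX 14 rose, 7 fell and 8 were not called, where 46.4% of all genes were called (23.2% higher and 23.1% lower). With FF 17 rose and 5 fell (all genes 42.2%, with 20.8% and 21.4%), with VSG158 14 rose and 7 fell (all genes 44.4%, with 19.7% and 24.6%), and with VSG159 14 rose and 8 fell (all genes 44.0%, with 19.1% and 24.9%). The list's median change was 0.27, 0.47, 0.31 and 0.27 with DEX, FF, VSG158 and VSG159, beside 0.03, -0.05, -0.06 and -0.06 over all genes.

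Fkbp5, the immunophilin that competes with FKBP4 for Hsp90 and a known glucocorticoid target, rose by 3.50, 3.50, 3.60 and 3.37 with DEX, FF, VSG158 and VSG159, and a second Fkbp5 probe gave 2.69, 3.09, 2.97 and 3.09. Hspd1, the mitochondrial chaperonin, rose by 1.83, 1.75, 1.74 and 1.87 in the same order. The stress-inducible Hsp70 gene Hspa1b changed by -4.00, -3.98, -4.16 and -4.25, above background on 3 DEX, 3 FF, 1 VSG158, 3 VSG159 and 3 vehicle arrays. Its neighbour Hspa1a, a near-identical copy whose signal may not be separable from it, gave -4.28, -4.31, -4.16 and -4.28, and was above background on 1 DEX, 2 FF, 1 VSG158, 3 VSG159 and 3 vehicle arrays, which leaves the size of these falls unclear. Some further members, chosen after their values were seen, illustrate how the list divided. Hspa8, the constitutive Hsp70, fell by 1.03, 1.15, 1.23 and 1.23, and Dnajb1, an Hsp40 of the heat shock response, fell by 1.30, 1.19, 1.33 and 1.28. In contrast Ahsa1, which stimulates the Hsp90 ATPase, rose by 0.87, 0.79, 0.84 and 0.87, and Cdc37, the co-chaperone for kinases, rose by 0.50, 0.46, 0.44 and 0.29.

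**Figure D5:**
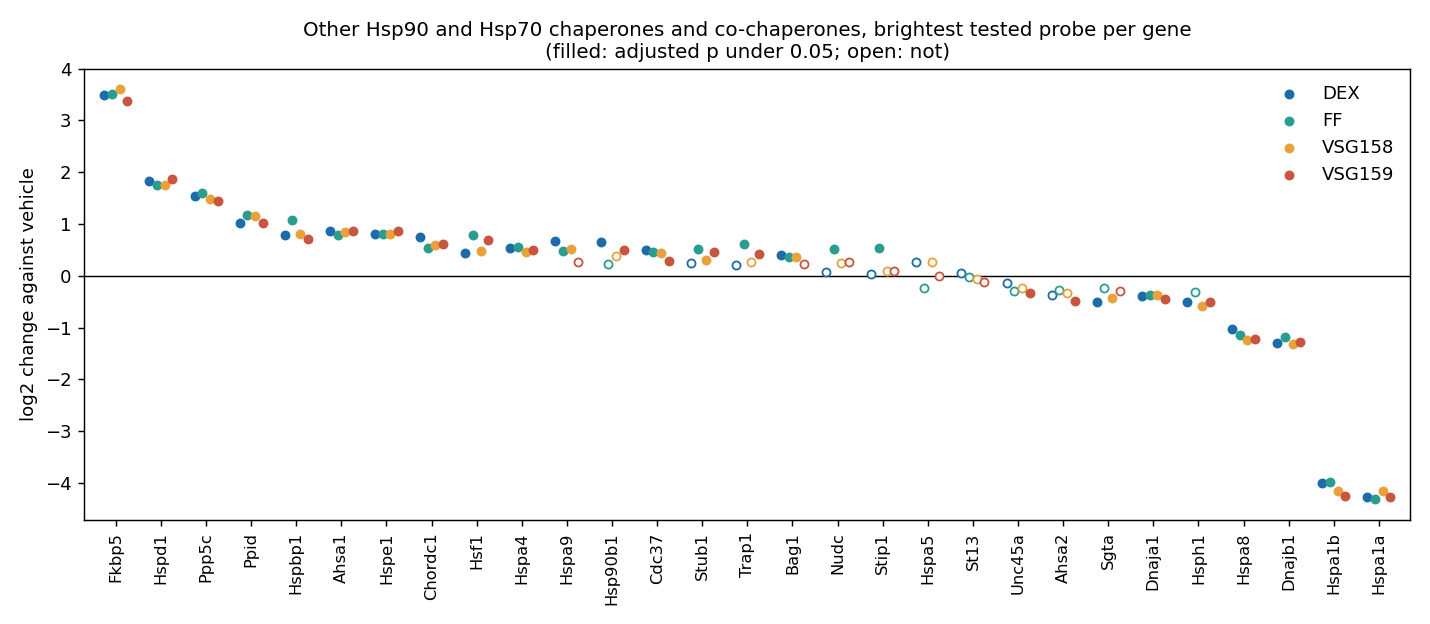
Log2 change against vehicle (vertical axis) of the 29 listed chaperone and related genes (horizontal axis), with DEX, FF, VSG158 and VSG159 in colours. Each gene is shown by its brightest tested probe, and Hspd1, Hspe1 and Hsf1 are among the genes. Filled points have an adjusted p under 0.05. Fkbp5 stands at 3.37 to 3.60, and Hspa1a and Hspa1b stand at -4.31 to -3.98.

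Among coactivators and chromatin partners, 14 of 16 were measured, and 5 rose and 3 fell with DEX, 6 and 3 with FF, 6 and 4 with VSG158 and 6 and 5 with VSG159. Over all genes the shares called were 46.4%, 42.2%, 44.4% and 44.0% with DEX, FF, VSG158 and VSG159, as given above by direction. Ppargc1b, a coactivator of nuclear receptors in energy metabolism, rose by 1.16, 1.81, 1.57 and 1.71 with DEX, FF, VSG158 and VSG159, and the arginine methyltransferase Prmt1 rose by 1.08, 1.26, 1.19 and 1.08. Ncoa3, the remaining p160 gene, fell by 1.03, 1.28, 1.29 and 1.33 and on a second probe by 1.58, 1.39, 1.59 and 1.49, while another Ncoa3 probe gave 0.03, 0.03, -0.04 and -0.11 and was not called. Cbx3, a heterochromatin protein 1 gene, rose by 1.06, 1.21, 1.16 and 1.02 and on a second probe by 0.85, 1.09, 1.07 and 1.24, and another of its probes gave 0.03, -0.07, -0.16 and 0.10. All 10 corepressor genes on the list were measured. Tbl1x, a subunit of the NCoR complexes, fell by 0.27, 0.43, 0.39 and 0.42, and by 0.74, 0.51, 0.86 and 0.83 on another probe. Sin3a was called lower with VSG158 (-0.58) and VSG159 (-0.65), and gave -0.39 with DEX and -0.43 with FF. Hdac3, the deacetylase of the Ncor1 complex, was called with VSG158 (-0.26, adjusted p = 0.032) and gave -0.06, -0.18 and -0.23 with DEX, FF and VSG159. On a second, dimmer probe it was called with DEX (-0.67, adjusted p = 0.048) and VSG158 (-0.91, adjusted p = 0.012, above background on 1 VSG158 array) and gave -0.61 with FF and -0.48 with VSG159.

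Of 7 other steroid hormone receptor genes, none rose with any steroid, beside 23.2%, 20.8%, 19.7% and 19.1% of all genes with DEX, FF, VSG158 and VSG159. With DEX, 2 were called lower, Esr2 (-0.31) and Esrrg, and with VSG158 Esrrg alone, beside 23.1% and 24.6% of all genes lower. Esrrg was above background on 0 DEX, 0 VSG158 and 2 vehicle arrays, so no size is given. It passed the filter through the vehicle arrays alone, so its calls are no result about the receptors. With FF and VSG159, 0 of 7 were called, beside 21.4% and 24.9% of all genes lower. Esrra, the estrogen-related receptor alpha gene, gave -0.02, 0.06, 0.01 and -0.19. Of 32 steroid metabolism and transport genes, 21 were measured, and 7 rose and 5 fell with DEX, 8 and 5 with FF, 8 and 4 with VSG158 and 8 and 4 with VSG159, where 23.2%, 20.8%, 19.7% and 19.1% of all genes were higher and 23.1%, 21.4%, 24.6% and 24.9% lower. H6pd, which supplies NADPH to 11β-hydroxysteroid dehydrogenase 1 in the endoplasmic reticulum, rose by 1.24, 1.61, 1.47 and 1.43. The mitochondrial dehydrogenase Hsd17b10 rose by 1.29, 1.33, 1.31 and 1.20. The cholesterol transport genes Stard3 and Tspo fell, Stard3 by 0.65, 0.81, 0.82 and 0.82 and Tspo by 0.83, 0.80, 0.97 and 0.98. Among 7 nuclear import genes, Kpna2 (importin alpha) rose by 1.57, 1.73, 1.80 and 1.80. Kpnb1 (importin beta) was called with DEX (1.75) and VSG159 (2.10) on its brightest probe, and its second probe rose with all 4, by 1.56, 1.49, 1.41 and 1.25. Ipo8 was called lower with DEX (-0.53), VSG158 (-0.47) and VSG159 (-0.41) and gave -0.26 with FF. A second Ipo8 probe was called with DEX alone (-0.79) and gave -0.33, -0.30 and -0.46 with FF, VSG158 and VSG159. Another, dim Ipo8 probe gave -0.74, 0.36, -0.42 and 0.14 with DEX, FF, VSG158 and VSG159 and was not called. Ipo13 differed by 1.07, 0.65, 0.88 and 0.84 on one probe, called with all but FF, and by -0.15, 0.31, -0.08 and 0.06 on another that was not called.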

How the data were processed

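RNA from RAW264.7 cells was measured on 15 one-colour Agilent arrays, 3 per group. Per the file headers, the authors scanned them with Feature Extraction 10.7.3.1 (protocol GE1_107_Sep09, array design on mm9). The deposited processed signal is an intensity after background subtraction and detrending within the array, per the file headers. The deposited table of values is on the log2 scale. The submitters' processing notes name limma with no version. The processed signal had a 75th percentile of 695 to 1223 per array. Well above background were 39.6% to 50.4% of noncontrol spots, and none was saturated. Arrays of a group correlated at 0.965 to 0.991. Their number limits the precision.

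Control spots were left out, outlier-marked spots were set to missing, and spots of a probe were averaged. Processed signal was divided by the array's 75th percentile, and its log2 was fitted by limma 3.58.1 (R 4.3.3, data.table version 1.17.8) on group alone, over all 15 arrays (10 residual degrees of freedom, prior 1.79). Probes well above background on at least 2 of 3 arrays of a group were tested, two-sided, in 10 contrasts with Benjamini-Hochberg adjustment over all tested probes. For 3 arrays against 3, the smallest exact permutation p is 0.1. Probe pairs of a gene were compared by an exact permutation test of 12 steroid against 3 vehicle arrays. Scripts were tested on simulated data. Members and gene lists were chosen with earlier results of these data known. All members and all their probes are described. Of each of the 6 lists, up to 4 genes are named by smallest adjusted p of the F test. Some single-gene results of the lists are not reported here. Alternatives were scaling, background correction, the table of values, the dim-probe filter, 1 probe per gene, slide and position terms, single slides, a replicate block, leaving out each array and keeping outlier-marked spots (the last chosen after seeing the data). Exon and UTR positions of probes were not analysed here.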

Additional observations from a re-analysis of the deposited data

How the results depend on the processing

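Of 3766 alternative values of member changes, 3578 stayed on their side of the threshold, 155 lost the call and 32 gained one. Of 1400 alternatives to called changes, 1 turned sign (Nr3c1 at position 4827 with DEX, 0.27 when slide and position were both terms), as did 141 of 2366 to changes that were not called. Many alternatives could not turn a sign, because they leave the change itself as it was. Examples are a left-out array of a group outside the comparison, another dim-probe filter and the replicate block. These counts therefore do not measure how firm the signs are. The cause was not tested for any setting. Median scaling left 6403 probes called by the F test and 7835, 7211, 7877 and 7283 with DEX, FF, VSG158 and VSG159 against vehicle, with 8 member probes each for FF and VSG158. Against DEX it left 0 probes for FF, 28 for VSG158 (0 member probes) and 42 for VSG159, and 2 for VSG159 against FF. Quantile normalization called 1 member probe each for FF and VSG159 against DEX. It put 66.42%, 71.99% and 52.78% of the calls of FF, VSG158 and VSG159 against DEX on the higher side, beside 55.26%, 61.38% and 36.47%. Normexp gave 776 calls for FF (1 member probe) and 655 for VSG159 against DEX (49.01% higher), and 3 probe pairs, that of Nr3c1 not among them. The deposited value table gave 520, 359 and 466 calls for FF, VSG158 and VSG159 against DEX. Without the dim-probe filter these were 146, 119 (0 member probes) and 149. A filter on all 3 arrays gave 2 member probes for VSG159 against DEX.

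With 1 probe per gene, 5, 6, 6 and 5 members were called with DEX, FF, VSG158 and VSG159 against vehicle, since only 9 member probes were tested, with 8624 genes for VSG158. Against DEX there were 807 genes for FF, 388 for VSG158 (1 member) and 1 member for VSG159. Slide as a fixed block gave 2072 probes for FF and 619 for VSG159 against DEX, 0 member probes for VSG158 against DEX, and 5, 2 and 28 probes for VSG158 against FF, VSG159 against FF and VSG158 against VSG159. As a random block it gave 0 probes (0 member probes) for VSG158 and 307 for VSG159 against DEX. Slide 2 alone gave 1 member probe for FF and 2 probes for VSG159 against DEX. Slide with position left 39, 1322, 8197 and 3686 probes against vehicle (0, 1, 7 and 4 member probes with DEX, FF, VSG158 and VSG159), and 76, 0 and 0 against DEX for FF, VSG158 (0 member probes) and VSG159. Same-numbered arrays did not deviate together (correlations of -0.53 to 0.28), so the numbers do not pair samples. The replicate block gave 540, 408 and 742 calls for FF, VSG158 and VSG159 against DEX.

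Leaving out single arrays gave 10548 to 15578 probes by the F test. Against vehicle it gave 11154 to 14438 with DEX (9 to 12 member probes), 10500 to 13062 with FF (10 to 14), 11111 to 13773 with VSG158 (11 to 13) and 10768 to 14567 with VSG159 (11 to 13). Against DEX it gave 165 to 1930 with FF (lowest without FF 2; 0 to 1 member probes), 158 to 889 with VSG158 (lowest without DEX 3; 0 to 3) and 244 to 1892 with VSG159 (lowest without DEX 3; 0 to 2). VSG158 and VSG159 against FF gave 0 to 42 and 0 to 74, VSG158 against VSG159 gave 0 to 51, each with 0 member probes, and 0 probe pairs were called. The Nr3c1 probe shift stayed between -0.72 and -0.60.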
